A study of Homo sapiens with 9 samples.

Results

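The genes that write and erase methyl groups on histone lysines were followed in human embryonic stem cells moved out of naive-state culture and treated with an inhibitor of the H3K27 methyltransferase EZH2. The set comprised 40 genes picked by symbol: 23 encode methyltransferases or proteins related to them, and 17 encode demethylases. They were 40 of 40332 gene symbols in the count table, all 40 passed the filter on low counts, and they were grouped by the residue that each enzyme acts on. RNA-seq was made from the human embryonic stem cell line H1 under 3 conditions, with 3 libraries each. The first set of cells had 5 µM EPZ-6438 added to N2B27 basal medium for 3 days. A second set had N2B27 alone, and the last was in PXGL, a naive-state medium known to pair LIF with inhibitors of protein kinase C, tankyrase and MEK. The names of both N2B27 groups show that these cells also came from PXGL culture. How long the untreated group spent in N2B27, and whether it received a vehicle, the sources used here do not give, and all data are from 1 cell line. All 3 groups were labelled wild-type.

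Methyl groups on histone H3 are placed by SET-domain enzymes and by DOT1L, and are removed by flavin-dependent enzymes of the KDM1 family and by the Jumonji family, which needs iron, oxygen and 2-oxoglutarate. H3K4 and H3K36 methylation mark active promoters, enhancers and gene bodies, H3K9 methylation marks heterochromatin and silenced repeats, and H3K27 methylation marks genes held silent by Polycomb. EZH2 and its relative EZH1 write the H3K27 mark that EPZ-6438 blocks, and KDM6A (UTX) and KDM6B (JMJD3) erase it, so these 2 demethylases act opposite to the inhibited enzyme.

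Promoter sequences are shown for the H3K27 demethylases, which differed from each other between media, and for 3 members with the largest changes under the inhibitor, KDM4A, KDM4C and SETD7. Each window holds 300 bases of RefSeq sequence on GRCh38.p14, 250 before and 50 after an annotated start, written 5′ to 3′ on the gene's strand. Capitals mark 3 motifs read on either strand, the E-box CACGTG, the CCAAT box (CCAAT or ATTGG) and the GC box (GGGCGG or CCGCCC).
KDM6A (chrX:44872938-44873237, + strand): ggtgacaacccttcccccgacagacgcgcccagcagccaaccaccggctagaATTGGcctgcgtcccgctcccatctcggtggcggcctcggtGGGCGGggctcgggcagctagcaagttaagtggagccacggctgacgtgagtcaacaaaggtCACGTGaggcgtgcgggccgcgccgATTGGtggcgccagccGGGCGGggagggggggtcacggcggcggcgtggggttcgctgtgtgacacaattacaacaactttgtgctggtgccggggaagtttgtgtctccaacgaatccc
KDM6B upstream start (chr17:7833967-7834266, + strand): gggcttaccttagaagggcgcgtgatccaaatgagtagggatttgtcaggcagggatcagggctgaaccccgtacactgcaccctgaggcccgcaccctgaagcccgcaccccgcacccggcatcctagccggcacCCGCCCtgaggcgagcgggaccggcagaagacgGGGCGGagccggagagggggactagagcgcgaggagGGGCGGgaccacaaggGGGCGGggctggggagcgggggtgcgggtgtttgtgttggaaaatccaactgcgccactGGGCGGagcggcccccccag
KDM6B downstream start (chr17:7839667-7839966, + strand): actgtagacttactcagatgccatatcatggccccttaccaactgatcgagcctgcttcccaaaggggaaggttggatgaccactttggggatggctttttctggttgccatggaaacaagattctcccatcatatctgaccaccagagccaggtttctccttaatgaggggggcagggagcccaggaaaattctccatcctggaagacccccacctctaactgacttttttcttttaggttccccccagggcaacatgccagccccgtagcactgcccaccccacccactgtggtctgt
KDM4A (chr1:43649899-43650198, + strand): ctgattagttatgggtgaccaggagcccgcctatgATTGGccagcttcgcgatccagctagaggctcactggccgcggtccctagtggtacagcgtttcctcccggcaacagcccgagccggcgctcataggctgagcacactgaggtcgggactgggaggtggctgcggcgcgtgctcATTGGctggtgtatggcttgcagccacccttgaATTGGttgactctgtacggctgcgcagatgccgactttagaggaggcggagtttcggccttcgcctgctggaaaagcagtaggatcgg
KDM4C (chr9:6757723-6758022, + strand): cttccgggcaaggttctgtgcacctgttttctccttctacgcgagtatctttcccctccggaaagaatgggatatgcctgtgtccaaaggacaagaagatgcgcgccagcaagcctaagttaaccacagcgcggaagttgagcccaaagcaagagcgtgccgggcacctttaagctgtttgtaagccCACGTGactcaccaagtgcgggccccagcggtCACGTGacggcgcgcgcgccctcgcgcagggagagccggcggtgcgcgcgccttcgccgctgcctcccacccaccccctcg
SETD7 (chr4:139556170-139556469, - strand): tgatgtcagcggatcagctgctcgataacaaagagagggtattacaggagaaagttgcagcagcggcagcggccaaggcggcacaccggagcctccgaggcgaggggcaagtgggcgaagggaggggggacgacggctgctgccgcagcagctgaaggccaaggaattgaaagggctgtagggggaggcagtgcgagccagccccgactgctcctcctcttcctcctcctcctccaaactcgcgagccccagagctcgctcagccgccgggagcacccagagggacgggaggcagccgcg
The windows of the H3K27 demethylases were unlike in these letters. KDM6A held 1 E-box, 2 CCAAT boxes and 2 GC boxes, the upstream window of KDM6B held 5 GC boxes and 24 CpG pairs, and its downstream window held none of the 3 motifs and 2 CpG pairs. KDM4A held 3 CCAAT boxes and no E-box, whereas KDM4C held 2 E-boxes and no CCAAT box, although the levels of both fell with the inhibitor. SETD7 held none of the 3 motifs and 22 CpG pairs.
RefSeq windows were found for 37 of the 40 members (51 windows), not for DOT1L, NSD3 and SETD1B. A GC box stood in 74.5% of the 51 windows and in 45.0% of all 35116 RefSeq windows of this length. The shares were 15.7% and 7.26% for the E-box, 33.3% and 34.6% for the CCAAT box, and 3.92% and 1.85% for the cAMP response element TGACGTCA. The STAT letters TTCNNNGAA were in none of the 51 windows and in 7.66% of all windows. Motifs on both strands were counted, the GC box is common wherever CpG pairs are, and a match describes letters only.

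Libraries held 14482105 to 18358530 counts, at which 3 counts correspond to 0.163 to 0.207 CPM (counts scaled to library size with edgeR's TMM factors). Within-group variation of genes (biological coefficient of variation) was 5.70% in N2B27 with EPZ-6438, 4.83% in N2B27 and 12.5% in PXGL. PXGL replicate 1 stood apart in that long transcripts were low in it. Its median log2 difference from the other 2 PXGL libraries was 0.25 for transcripts under 2 kb and -0.36 for those over 8 kb. The pluripotency markers POU5F1, NANOG, SOX2, LIN28A, DPPA4 and TDGF1 were all present, summing to 4354 to 4408 CPM with EPZ-6438, 5336 to 5447 CPM in N2B27 and 3743 to 4093 CPM in PXGL. Genes listed as markers of other cells also moved with the groups. The 6 hypoblast markers summed to 56.2 to 61.7 CPM with EPZ-6438, 28.8 to 29.2 CPM in N2B27 and 38.7 to 47.5 CPM in PXGL, and the 4 mesendoderm markers to 129 to 139.5, 18.1 to 21.4 and 9.11 to 11.0 CPM in the same order. The 7 genes listed for fibroblasts summed to 84.7 to 88.4, 164 to 177 and 14.6 to 19.9 CPM, with 3 of the 7 at 0 counts in N2B27, and the blood markers PTPRC and CD34 reached at most 0.222 CPM in any library. The 5 trophectoderm markers summed to 22.9 to 29.1 CPM with EPZ-6438, 13.9 to 15.1 CPM in N2B27 and 10.3 to 11.1 CPM in PXGL, and the 4 naive markers to 1687 to 1766, 1380 to 1417 and 1778 to 2159 CPM in the same order. Members of a list did not all follow its sum: among hypoblast markers, HNF4A averaged 21.0 CPM with EPZ-6438, 8.30 CPM in N2B27 and 29.4 CPM in PXGL, and GATA4 22.7, 13.97 and 7.60 CPM. In the same order, THY1 of the fibroblast list averaged 43.5, 118 and 0.623 CPM, COL1A1 19.2, 25.6 and 14.0 CPM and COL1A2 23.3, 28.4 and 2.48 CPM. COL3A1, LUM, DCN and POSTN averaged at most 0.422 CPM in any group. THY1 thus held the largest part of the fibroblast list's sum in N2B27, and whether it came from fibroblasts was not tested. Of the naive markers, KLF17 averaged 74.2, 57.7 and 58.0 CPM and SUSD2 744, 569 and 515 CPM. DPPA5 averaged 301, 403 and 613 CPM and DNMT3L 599, 366 and 731 CPM. The part of these shifts in the results below was not tested, and in bulk RNA fewer cells of a type and less RNA per cell cannot be told apart.

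Set side by side per kilobase of transcript, the 40 members spanned more than 2 orders of magnitude in level. KDM1A (LSD1), which removes H3K4 methylation with the CoREST complex, stood first in all 3 groups, at 76.7 CPM per kb with EPZ-6438, 81.7 in N2B27 and 107 in PXGL. NSD1, which dimethylates H3K36, was second in both N2B27 groups at 40.97 CPM per kb with EPZ-6438 and 45.9 in N2B27, against 29.3 and the sixth place in PXGL. The order moved by 12 places for KDM4B and SMYD2, by 10 for SUV39H2 and by 9 for KDM6B, while KDM4A moved by 5 to the second place in PXGL. KDM4A was the seventh with EPZ-6438 at 21.5 CPM per kb, the sixth in N2B27 at 30.3 and the second in PXGL at 41.3. At the low end stood KDM8 and KDM4D, and KDM4D, an H3K9 demethylase known for its expression in testis, gave 0.458, 0.433 and 0.518 CPM per kb. Of the 39 neighbouring pairs in each order, 18 with EPZ-6438, 17 in N2B27 and 33 in PXGL differed by less than the larger SD of the pair, for example DOT1L and SETD1B with EPZ-6438 and KMT2A and ASH1L in N2B27. Summed over all 40 members, N2B27 libraries with EPZ-6438 held 3759, 3795 and 3818 CPM, below the 4070, 3979 and 4007 CPM of N2B27 libraries. The PXGL libraries held 3438, 4399 and 4519 CPM, so PXGL replicate 1 was the lowest and the other 2 the highest of the 9.

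**Figure D1:**
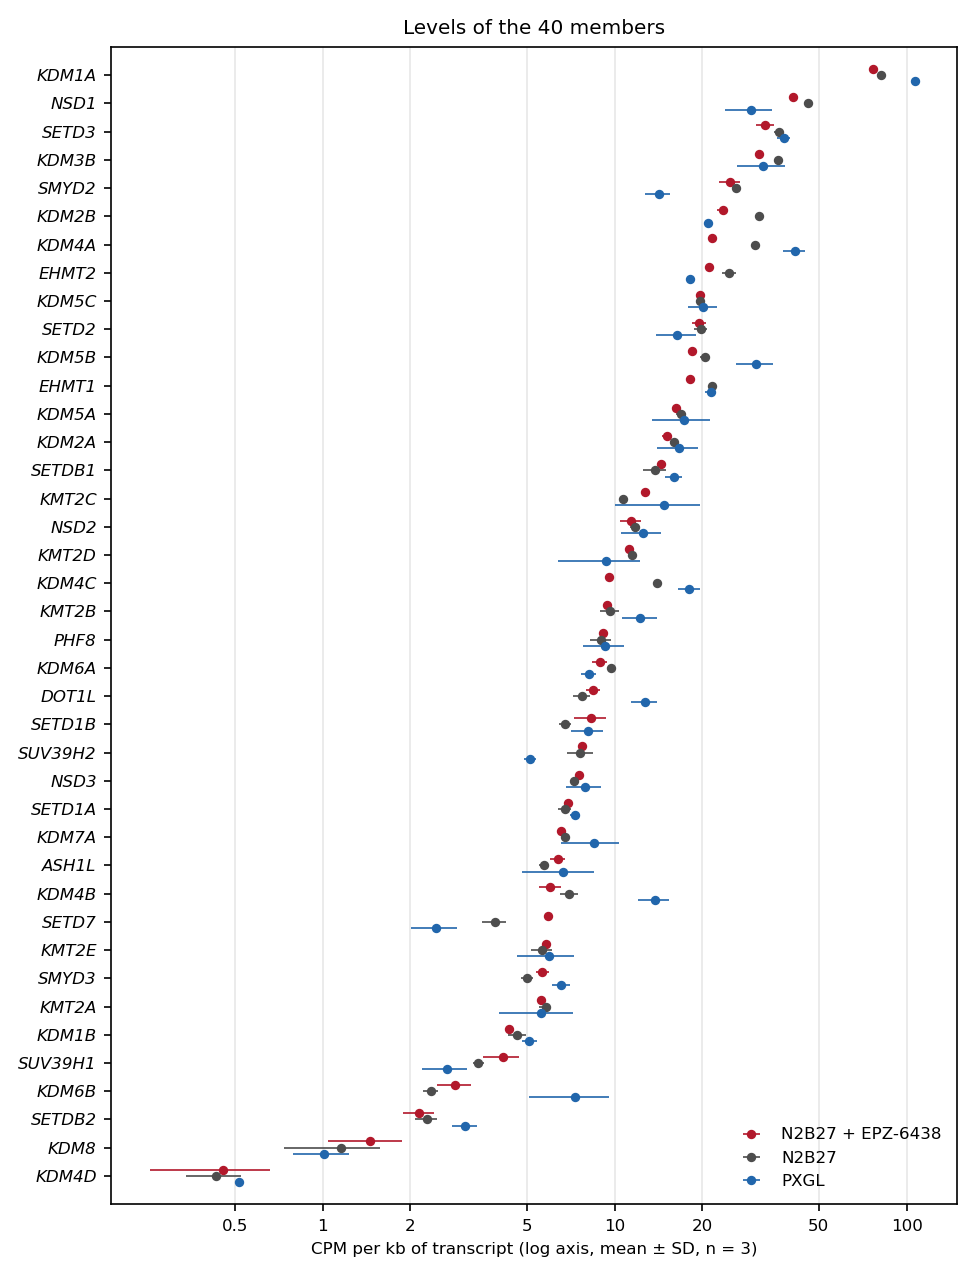
Levels of the 40 members on a log axis, in CPM per kb of the longest annotated transcript, as mean ± SD of 3 libraries for N2B27 with EPZ-6438 (red), N2B27 (grey) and PXGL (blue). KDM1A is highest in all groups, KDM4D lowest, and the wide PXGL bars of KMT2C, KMT2D and KDM6B come with low values in PXGL replicate 1.

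KDM6A and KDM6B, the erasers of the mark that EZH2 writes, behaved differently from each other. KDM6B was far lower in both N2B27 groups than in PXGL, while KDM6A was slightly higher in N2B27 than in PXGL. Neither passed the test between EPZ-6438 and N2B27.
KDM6B gave 21.7, 16.5 and 19.2 CPM with EPZ-6438, 15.9, 14.8 and 16.5 CPM in N2B27 and 32.3, 54.9 and 60.4 CPM in PXGL. Every PXGL library lay above every N2B27 library with or without the inhibitor, and PXGL replicate 1 was well below the other 2. The level in N2B27 was 3.13-fold lower than in PXGL (log2 fold change -1.64, SE 0.19, edgeR adjusted p = 9.05e-06), and with EPZ-6438 it was 2.58-fold lower than in PXGL (log2 fold change -1.37, SE 0.19, edgeR adjusted p = 3.99e-05). Without PXGL replicate 1 these log2 fold changes were -1.87 and -1.60. Over the 17 alternatives they ranged from -1.87 to -1.31 in N2B27 and from -1.60 to -1.04 with EPZ-6438.
Between EPZ-6438 and N2B27 the 2 groups of KDM6B overlapped in 1 pair of libraries, and the log2 fold change of 0.28 (95% interval -0.16 to 0.72, edgeR adjusted p = 0.357) was not called. The interval still allows a rise or a small fall. The call appeared when only these 2 groups were fitted (edgeR adjusted p = 0.0486) and when PXGL replicate 1 was left out (edgeR adjusted p = 0.0293), at the same log2 fold change of 0.28.
KDM6A, which also sits in the KMT2C and KMT2D complexes, gave 49.98, 52.2 and 55.8 CPM with EPZ-6438, 59.2, 55.5 and 57.9 CPM in N2B27 and 45.1, 49.6 and 50.3 CPM in PXGL. The N2B27 values all lay above the PXGL values, and those with EPZ-6438 reached into both ranges. KDM6A was 1.19-fold higher in N2B27 than in PXGL (log2 fold change 0.25, SE 0.08, edgeR adjusted p = 0.0103). With EPZ-6438 its log2 fold change was -0.13 against N2B27 (95% interval -0.29 to 0.04, edgeR adjusted p = 0.251) and 0.12 against PXGL (95% interval -0.04 to 0.29, edgeR adjusted p = 0.18).
The balance of the pair, as KDM6A over KDM6B per kilobase within a library, was 2.61, 3.59 and 3.30 with EPZ-6438, 4.22, 4.26 and 3.97 in N2B27, and 1.58, 1.02 and 0.943 in PXGL. The 3 groups did not overlap in this ratio, but the ratio was not tested. Its closest values with EPZ-6438 and in N2B27 were 3.59 and 3.97, and neither gene was called between these groups. EZH2 itself, the target of EPZ-6438, gave 82.5 ± 3.61 CPM with EPZ-6438 and 71.98 ± 2.86 CPM in N2B27 (SD, n = 3 each), and was called 1.15-fold higher with the inhibitor (log2 fold change 0.20, SE 0.07, edgeR adjusted p = 0.0415). That call lay close to the threshold, and the alternatives were tallied gene by gene for the 40 members only. In PXGL EZH2 gave 78.3 ± 1.49 CPM. Its PXGL libraries, at 76.6 to 79.2 CPM, overlapped those with EPZ-6438, at 78.96 to 86.2 CPM. EZH1 gave 17.04 ± 1.64 CPM with EPZ-6438 and 18.8 ± 1.84 CPM in N2B27 and was not called between them (edgeR adjusted p = 0.511).

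**Figure D2:**
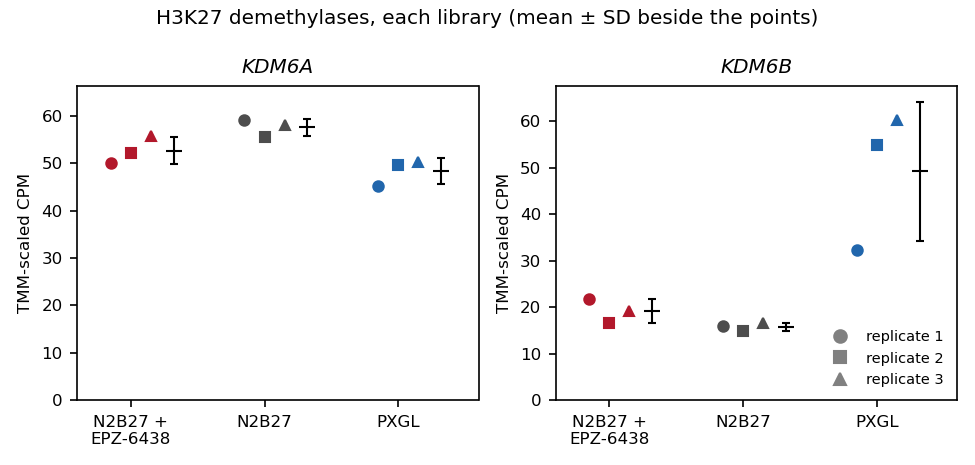
KDM6A (left) and KDM6B (right) in TMM-scaled CPM in each library of N2B27 with EPZ-6438, N2B27 and PXGL, with mean ± SD (n = 3) beside the points. KDM6B lies at 14.8 to 21.7 CPM in the 6 N2B27 libraries with and without the inhibitor and at 32.3 to 60.4 CPM in PXGL, while KDM6A stays between 45.1 and 59.2 CPM throughout.

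With all 9 libraries, few of the 40 members were called with the inhibitor, and none changed by over 2-fold. Of all genes tested, 5.34% rose and 1.1% fell by over 2-fold. At an adjusted p under 0.05 by edgeR's quasi-likelihood test, adjusted over the 15179 genes tested, 2 of 40 members (5%) rose with EPZ-6438 against N2B27, where 14.2% of all genes tested rose. Another 5 (12.5%) fell, where 10.6% of all genes fell, and 24.7% of all genes were called in either direction. The members that rose were SETD7 and SETD1B, both grouped as H3K4 methyltransferases. Those that fell were the H3K9 demethylases KDM4C and KDM4A, the H3K36 demethylase KDM2B and the H3K9 methyltransferases EHMT1 and EHMT2. The other 33 members were not called. Ranges that did not overlap were higher for 7 members and lower for 11, beside 23.9% and 22.6% of all genes. By activity, the split was 2 higher and 2 lower among 23 methyltransferase genes and 0 higher and 3 lower among 17 demethylase genes. The median log2 fold change was -0.040 over the members and 0.0073 over all genes tested. The counts depended on the fit, for the members and for all genes. The lower count was 5 with all 9 libraries, 10 with only these 2 groups, and 11 without PXGL replicate 1, whose spread enters the shared estimate. In the same order of fits the higher count was 2, 5 and 5, and the genes called over the whole table numbered 3752, 5641 and 5770. The split of higher against lower was 1 to 5 with DESeq2's size factors and 2 to 10 with offsets for transcript length and GC content.

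Between media the changes were more frequent, as they were across the whole table. In N2B27 against PXGL, 8 of 40 members (20%) rose and 13 (32.5%) fell, beside 27.3% and 28.7% of all genes tested, or 56% in either direction. KDM6A, KDM2B, NSD1, SETD2, SETD7, EHMT2, SUV39H2 and SMYD2 rose, and KDM6B, KDM1A, KDM5B, KMT2B, SETD1B, DOT1L, KDM4A, KDM4B, KDM4C, KDM7A, SETDB1, SETDB2 and SMYD3 fell. The methyltransferase genes divided into 6 higher and 6 lower of 23, and the demethylase genes into 2 higher and 7 lower of 17. The median log2 fold change was -0.08 over the members and -0.03 over all genes tested. Falls of over 2-fold were called for 1 member, KDM6B, and rises of over 2-fold for 0, beside 9.96% and 8.3% of all genes. Ranges that did not overlap were higher for 9 members and lower for 12, beside 29.4% and 31.3% of all genes. Without PXGL replicate 1 the split was 9 higher and 22 lower, and with offsets for length and GC content it was 14 higher and 12 lower.
With EPZ-6438 against PXGL, 8 members (20%) rose and 12 (30%) fell, beside 28.1% and 28% of all genes tested, or 56.1% in either direction. The median log2 fold change was -0.08 over the members and -0.0015 over all genes tested. KDM6B and KDM4B fell and SETD7 rose by over 2-fold, 2 and 1 members beside 7.66% and 10.2% of all genes. Ranges that did not overlap were higher for 8 members and lower for 14, beside 30.6% and 30.1% of all genes. Without PXGL replicate 1 the split was 8 higher and 23 lower, and with the offsets 12 higher and 11 lower. The 3 comparisons share groups, so they are given side by side and not as support for each other.

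**Figure D3:**
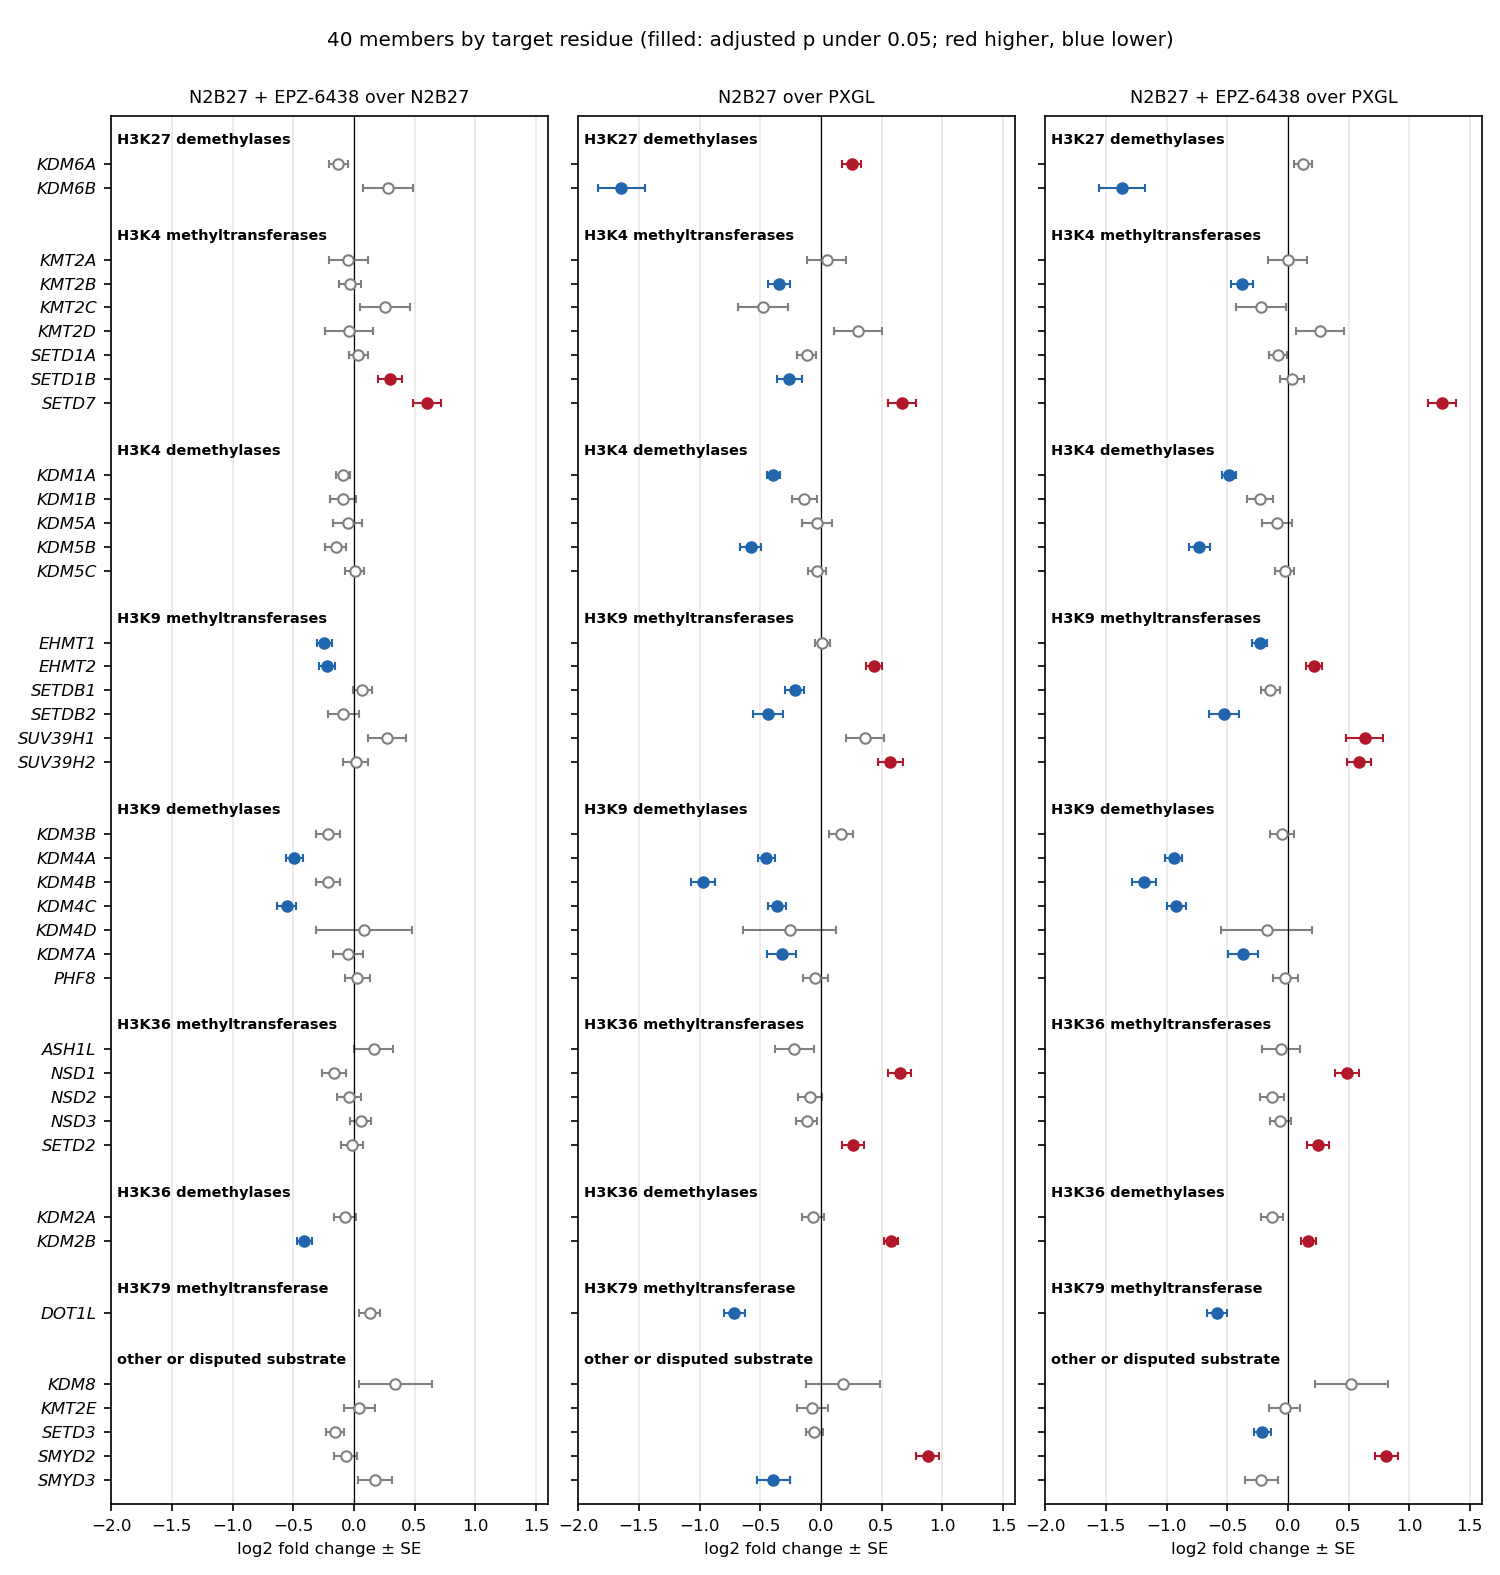
Log2 fold change ± SE of the 40 members by target residue, in N2B27 with EPZ-6438 over N2B27 (left), N2B27 over PXGL (middle) and N2B27 with EPZ-6438 over PXGL (right); filled points have an adjusted p under 0.05. With the inhibitor against N2B27 7 members are filled, against 21 and 20 in the comparisons with PXGL, where KDM6B has the lowest value.

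Among the 7 H3K9 demethylases, the KDM4 family held most of the changes. KDM4A, KDM4B and KDM4C remove tri- and dimethyl groups from H3K9 and also act on H3K36. With all 9 libraries and no offsets, the calls among the 7 were 0 higher and 2 lower with EPZ-6438 against N2B27 (beside 14.2% and 10.6% of all genes), and 0 higher and 4 lower in each comparison with PXGL (beside 27.3% and 28.7% for N2B27, and 28.1% and 28% with EPZ-6438). KDM4A and KDM4C were lower with EPZ-6438 than in N2B27, and lower in N2B27 than in PXGL.
KDM4A gave 93.8, 98.2 and 96.9 CPM with EPZ-6438, 138, 137 and 132 CPM in N2B27 and 167, 195 and 193 CPM in PXGL. The 3 groups did not overlap and stood in that order, with PXGL replicate 1 the lowest of its group. It was 1.41-fold lower with EPZ-6438 than in N2B27 (log2 fold change -0.49, SE 0.07, edgeR adjusted p = 5.70e-05), 1.36-fold lower in N2B27 than in PXGL (log2 fold change -0.45, SE 0.07, edgeR adjusted p = 3.11e-05), and 1.92-fold lower with EPZ-6438 than in PXGL (log2 fold change -0.94, SE 0.07, edgeR adjusted p = 6.75e-09).
KDM4C followed the same order, at 43.9, 43.7 and 45.7 CPM with EPZ-6438, 65.2, 65.6 and 65.1 CPM in N2B27 and 76.02, 86.1 and 89.7 CPM in PXGL. The N2B27 libraries lay within 1 CPM of each other, and no 2 groups overlapped. The level was 1.47-fold lower with EPZ-6438 than in N2B27 (log2 fold change -0.56, SE 0.08, edgeR adjusted p = 4.38e-05) and 1.29-fold lower in N2B27 than in PXGL (log2 fold change -0.36, SE 0.07, edgeR adjusted p = 5.31e-04). Against PXGL the decrease with EPZ-6438 was 1.89-fold (log2 fold change -0.92, SE 0.08, edgeR adjusted p = 2.69e-08).
KDM4B gave 36.4, 31.01 and 35.8 CPM with EPZ-6438, 41.99, 36.7 and 41.01 CPM in N2B27 and 67.4, 83.5 and 83.5 CPM in PXGL. Here the gap lay between PXGL and the rest. KDM4B was 1.96-fold lower in N2B27 than in PXGL (log2 fold change -0.97, SE 0.10, edgeR adjusted p = 3.21e-07) and 2.27-fold lower with EPZ-6438 than in PXGL (log2 fold change -1.19, SE 0.10, edgeR adjusted p = 3.01e-08). Between EPZ-6438 and N2B27 the ranges did not overlap, but the log2 fold change of -0.22 (95% interval -0.43 to -0.0018) had an edgeR adjusted p of 0.135, and 0.0303 with the offsets for length and GC content. KDM4B was also called lower there with only these 2 groups and without PXGL replicate 1.
KDM7A, which acts on H3K9 and H3K27, was called lower in N2B27 than in PXGL (log2 fold change -0.32, SE 0.12, edgeR adjusted p = 0.0332) and with EPZ-6438 than in PXGL (log2 fold change -0.37, SE 0.12, edgeR adjusted p = 0.017). Its ranges overlapped in both, since PXGL replicate 1 at 58.4 CPM was the lowest of all 9 libraries, and without PXGL replicate 3 the edgeR adjusted p was 0.15 and 0.0771. The log2 fold changes of KDM7A were -0.50 and -0.55 without PXGL replicate 1, and -0.21 and -0.26 without PXGL replicate 3. KDM3B, which removes mono- and dimethyl groups, and PHF8, which also acts on H4K20, were not called with all 9 libraries and no offsets. With the offsets KDM3B was called lower with EPZ-6438 than in N2B27 (log2 fold change -0.27, edgeR adjusted p = 0.00106) and higher in N2B27 than in PXGL (log2 fold change 0.22, edgeR adjusted p = 0.00235), and it was called lower with EPZ-6438 than in N2B27 also with only these 2 groups (edgeR adjusted p = 6.88e-06). With PXGL replicate 1 left out, KDM3B was lower with EPZ-6438 than in N2B27 (-0.22, edgeR adjusted p = 8.41e-06) and than in PXGL (-0.20, edgeR adjusted p = 7.90e-05), and PHF8 was lower in N2B27 than in PXGL (-0.18, edgeR adjusted p = 0.0304). Without PXGL replicate 2 KDM3B was higher in N2B27 than in PXGL (0.26, edgeR adjusted p = 0.0468). KDM4D, at 0.746 to 1.95 CPM over the 9 libraries, was too sparse for a small difference to be detectable. KDM4E, a close relative of KDM4D outside the 40, was 3.09-fold higher with EPZ-6438 (13.5 ± 0.915 CPM) than in N2B27 (4.36 ± 0.959 CPM; edgeR adjusted p = 5.82e-06), and reads could be split between such relatives. KDM4A overlaps an antisense gene, KDM4A-AS1, whose level was at most 2.08 CPM in any library and whose edgeR adjusted p was 0.633 between EPZ-6438 and N2B27.

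The 6 H3K9 methyltransferases did not move as 1 group. The partners EHMT1 (GLP) and EHMT2 (G9a), which together place mono- and dimethyl groups in euchromatin, were the members of this class called lower with the inhibitor. SUV39H1 and SUV39H2, which trimethylate H3K9 in constitutive heterochromatin, were higher with the inhibitor than in PXGL.
EHMT1 gave 94.9, 92.9 and 91.9 CPM with EPZ-6438, 111, 114 and 107 CPM in N2B27 and 109, 105 and 114 CPM in PXGL. The inhibitor libraries lay below all 6 others, and N2B27 and PXGL overlapped. The difference was 1.18-fold against N2B27 (log2 fold change -0.24, SE 0.06, edgeR adjusted p = 0.00856) and 1.18-fold against PXGL (log2 fold change -0.23, SE 0.06, edgeR adjusted p = 0.00436), and the call against PXGL was lost with the offsets for length and GC content (edgeR adjusted p up to 0.132).
EHMT2 gave 84.7, 87.5 and 89.5 CPM with EPZ-6438, 98.9, 108 and 98.2 CPM in N2B27 and 72.1, 76.4 and 76.8 CPM in PXGL. The inhibitor group lay between the other groups without overlap. EHMT2 was 1.17-fold lower with EPZ-6438 than in N2B27 (log2 fold change -0.22, SE 0.07, edgeR adjusted p = 0.0219) and 1.36-fold higher in N2B27 than in PXGL (log2 fold change 0.44, SE 0.07, edgeR adjusted p = 3.19e-05). Against PXGL it was higher with EPZ-6438 (log2 fold change 0.22, SE 0.07, edgeR adjusted p = 0.0111), where EHMT1 was lower. With the offsets for length and GC content the log2 fold changes against PXGL were larger, at 0.68 in N2B27 and 0.46 with EPZ-6438. The call against N2B27 was lost without EPZ-6438 replicate 1, EPZ-6438 replicate 2 or N2B27 replicate 2, with an edgeR adjusted p of up to 0.116.
SUV39H1 gave 11.7, 10.9 and 14.2 CPM with EPZ-6438, 10.03, 9.84 and 10.7 CPM in N2B27 and 9.16, 6.41 and 8.22 CPM in PXGL. The order of the groups was opposite to that of the KDM4 demethylases, with no overlap. The rise was called with EPZ-6438 against PXGL (log2 fold change 0.63, SE 0.16, edgeR adjusted p = 0.00234), and not against N2B27 (log2 fold change 0.27, edgeR adjusted p = 0.221) or for N2B27 against PXGL (log2 fold change 0.36, edgeR adjusted p = 0.062).
SUV39H2 averaged 23.8 ± 0.388 CPM with EPZ-6438, 23.6 ± 2.400 CPM in N2B27 and 15.9 ± 0.744 CPM in PXGL (SD, n = 3 each). It was called higher in N2B27 (log2 fold change 0.57, SE 0.10, edgeR adjusted p = 1.77e-04) and with EPZ-6438 (log2 fold change 0.59, SE 0.10, edgeR adjusted p = 1.33e-04) than in PXGL. Its gene overlaps DCLRE1C on the opposite strand, which averaged 5.49, 3.41 and 6.28 CPM in the same order of groups. Against PXGL, the offsets for length and GC content also gave calls in N2B27 for SUV39H1 (0.51, edgeR adjusted p = 0.00598) and EHMT1 (0.16, edgeR adjusted p = 0.0189). SETDB1, which silences retroelements with TRIM28, was called lower in N2B27 than in PXGL at a log2 fold change of -0.21 (edgeR adjusted p = 0.029, up to 0.17 among the alternatives). CERS2, which overlaps SETDB1 on the opposite strand, averaged 102 CPM with EPZ-6438, 118 CPM in N2B27 and 82.3 CPM in PXGL. It was called higher in N2B27 than in PXGL (log2 fold change 0.52, edgeR adjusted p = 3.22e-06). SETDB2, a relative of SETDB1, was lower in N2B27 (log2 fold change -0.44, SE 0.13, edgeR adjusted p = 0.00693) and with EPZ-6438 (log2 fold change -0.52, SE 0.13, edgeR adjusted p = 0.00191) than in PXGL.

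**Figure D4:**
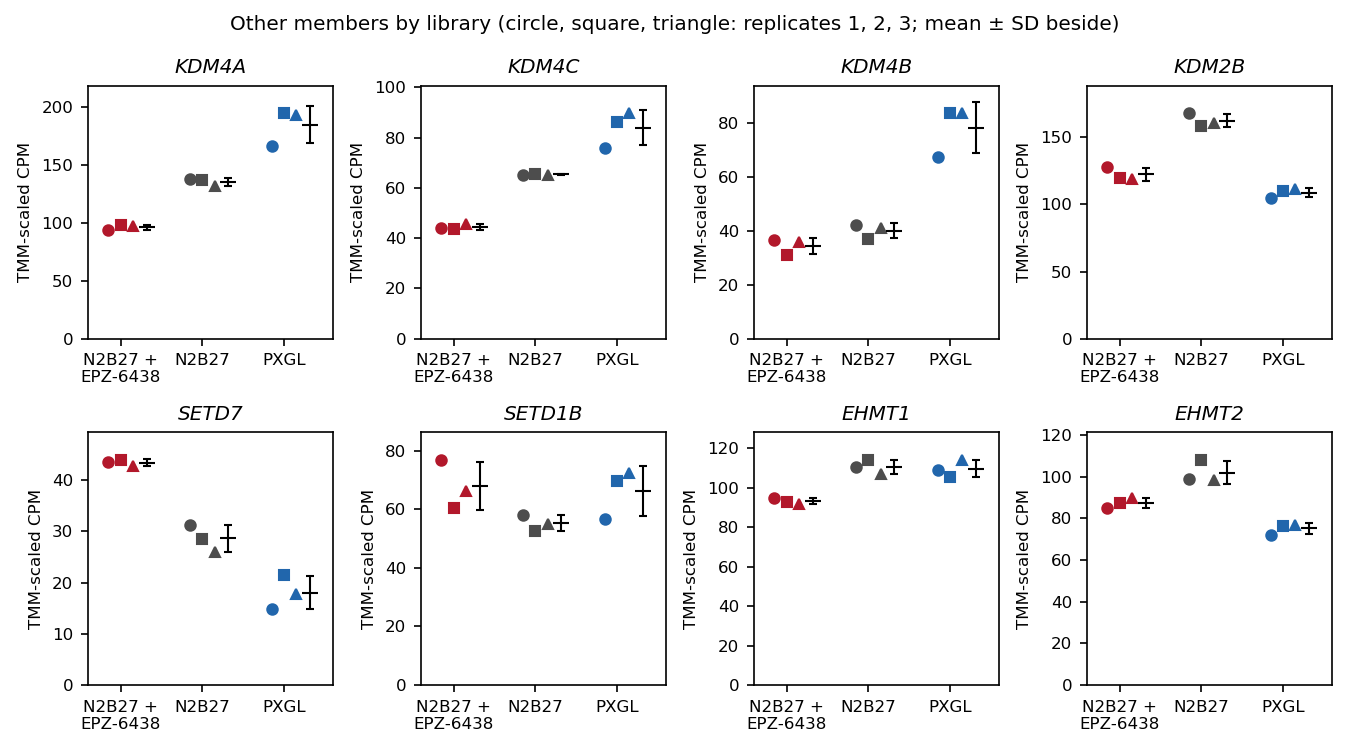
TMM-scaled CPM of KDM4A, KDM4C, KDM4B, KDM2B, SETD7, SETD1B, EHMT1 and EHMT2 in each library of N2B27 with EPZ-6438 (red), N2B27 (grey) and PXGL (blue), with mean ± SD (n = 3) beside the points. KDM4A and KDM4C step up from the inhibitor group to PXGL, SETD7 steps down, and KDM2B is highest in N2B27.

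Of the 7 H3K4 methyltransferases, SETD7 had the largest log2 fold change in each comparison with all 9 libraries and no offsets. SETD7 monomethylates H3K4 in vitro and methylates several other proteins. It was higher in N2B27 than in PXGL and higher again with the inhibitor.
SETD7 gave 43.5, 44.03 and 42.8 CPM with EPZ-6438, 31.3, 28.5 and 26.1 CPM in N2B27 and 14.9, 21.4 and 17.7 CPM in PXGL. The inhibitor libraries lay within 2 CPM of each other, and the 3 groups did not overlap. SETD7 was 1.52-fold higher with EPZ-6438 than in N2B27 (log2 fold change 0.60, SE 0.11, edgeR adjusted p = 8.21e-04), 1.59-fold higher in N2B27 than in PXGL (log2 fold change 0.67, SE 0.12, edgeR adjusted p = 1.43e-04), and 2.41-fold higher with EPZ-6438 than in PXGL (log2 fold change 1.27, SE 0.12, edgeR adjusted p = 9.52e-08).
SETD1B, a catalytic subunit of the SET1 complexes that place H3K4 trimethylation at promoters, gave 77.02, 60.5 and 66.4 CPM with EPZ-6438, 58.1, 52.7 and 55.1 CPM in N2B27 and 56.7, 69.8 and 72.4 CPM in PXGL. Inhibitor libraries lay above N2B27 libraries and overlapped PXGL. The rise of 1.23-fold against N2B27 (log2 fold change 0.30, SE 0.10, edgeR adjusted p = 0.0419) lay close to the threshold and was lost in 7 of 17 alternatives, with a log2 fold change of 0.20 without EPZ-6438 replicate 1. In N2B27 against PXGL it was called lower (log2 fold change -0.26, SE 0.10, edgeR adjusted p = 0.0372) with overlapping ranges, and the offsets for length and GC content turned that log2 fold change to 0.075 and made a call of its level with EPZ-6438 against PXGL (0.35, edgeR adjusted p = 1.62e-04; without them 0.04).
Its paralogue SETD1A was not called with all 9 libraries and no offsets, but with the offsets it was called higher in N2B27 (log2 fold change 0.18, edgeR adjusted p = 0.0406) and with EPZ-6438 (log2 fold change 0.20, edgeR adjusted p = 0.0198) than in PXGL. KMT2B, which with menin methylates H3K4 at promoters, was called lower in N2B27 (log2 fold change -0.34, SE 0.09, edgeR adjusted p = 0.0037) and with EPZ-6438 (log2 fold change -0.38, SE 0.09, edgeR adjusted p = 0.00186) than in PXGL. With the offsets for length and GC content these values were 0.049 and 0.0061, so that the direction turned. KMT2A, KMT2C and KMT2D were not called with all 9 libraries and no offsets. KMT2C, the enhancer methyltransferase that pairs with KMT2D, gave 218, 212 and 212 CPM with EPZ-6438, 182, 183 and 174 CPM in N2B27 and 157, 295 and 297 CPM in PXGL. PXGL replicate 1 was the lowest of the 9 libraries and the other 2 PXGL libraries the highest. Without that library KMT2C was called higher with EPZ-6438 than in N2B27 (log2 fold change 0.25, edgeR adjusted p = 5.26e-07) and lower in N2B27 than in PXGL (log2 fold change -0.72, edgeR adjusted p = 3.84e-21), a larger change than that of SETD7 there (log2 fold change 0.55). With the offsets the log2 fold change of KMT2C was 0.17 between EPZ-6438 and N2B27 (edgeR adjusted p = 0.33) and -0.36 between N2B27 and PXGL (edgeR adjusted p = 0.0321). The log2 fold change of KMT2D in N2B27 against PXGL was 0.31 (edgeR adjusted p = 0.22), 0.66 with the offsets (edgeR adjusted p = 1.83e-07) and 0.065 without PXGL replicate 1, and KMT2A was called lower without that library (-0.17) and higher with the offsets (0.18).

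Of the 5 H3K4 demethylases, KDM1A and KDM5B were lower in both N2B27 groups than in PXGL, and none of the 5 was called between EPZ-6438 and N2B27 with all 9 libraries and no offsets. KDM1A averaged 235 ± 2.02 CPM with EPZ-6438, 249.8 ± 5.26 CPM in N2B27 and 328 ± 8.24 CPM in PXGL (SD, n = 3 each). It was 1.31-fold lower in N2B27 (log2 fold change -0.39, SE 0.06, edgeR adjusted p = 1.53e-05) and 1.398-fold lower with EPZ-6438 (log2 fold change -0.48, SE 0.06, edgeR adjusted p = 1.53e-06) than in PXGL.
KDM5B, a Jumonji enzyme that removes H3K4 trimethylation, gave 185, 189 and 197 CPM with EPZ-6438, 217, 214 and 203 CPM in N2B27 and 264, 331 and 352 CPM in PXGL. All PXGL libraries lay above the other 6. KDM5B was 1.49-fold lower in N2B27 (log2 fold change -0.58, SE 0.08, edgeR adjusted p = 2.20e-05) and 1.66-fold lower with EPZ-6438 (log2 fold change -0.73, SE 0.09, edgeR adjusted p = 1.80e-06) than in PXGL. Between EPZ-6438 and N2B27 the ranges of KDM5B did not overlap, and its log2 fold change of -0.15 (edgeR adjusted p = 0.22) was called without PXGL replicate 1 (edgeR adjusted p = 0.00211), with only these 2 groups (edgeR adjusted p = 0.00244) and with the offsets (edgeR adjusted p = 0.00241). KDM1A was called lower there without PXGL replicate 1 (log2 fold change -0.093, edgeR adjusted p = 0.0437). KDM1B, the flavin-dependent relative of KDM1A, and the KDM5B relatives KDM5A and KDM5C were not called with all 9 libraries and no offsets. KDM5A and KDM5C were called lower in both N2B27 groups than in PXGL without PXGL replicate 1 (log2 fold changes -0.21 and -0.12 in N2B27, -0.26 and -0.12 with EPZ-6438), and KDM1B lower with EPZ-6438 than in PXGL with the offsets (-0.32).

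Among the 5 H3K36 methyltransferases, NSD1 had the highest level and, against PXGL with all 9 libraries, the largest change. NSD1 gave 520.5, 529 and 535 CPM with EPZ-6438, 609, 582 and 585 CPM in N2B27 and 300.4, 397 and 435 CPM in PXGL. The 3 groups did not overlap, and N2B27 was the highest. NSD1 was 1.57-fold higher in N2B27 than in PXGL (log2 fold change 0.65, SE 0.10, edgeR adjusted p = 2.94e-05) and 1.400-fold higher with EPZ-6438 than in PXGL (log2 fold change 0.49, SE 0.10, edgeR adjusted p = 4.54e-04). Against N2B27 its log2 fold change with EPZ-6438 was -0.16 (edgeR adjusted p = 0.236), which became a call without PXGL replicate 1 (edgeR adjusted p = 9.73e-05) and with the offsets (edgeR adjusted p = 3.24e-04).
SETD2, the enzyme that trimethylates H3K36 in transcribed gene bodies, was called higher in N2B27 (log2 fold change 0.26, SE 0.09, edgeR adjusted p = 0.0211) and with EPZ-6438 (log2 fold change 0.25, SE 0.09, edgeR adjusted p = 0.0297) than in PXGL, and leaving out single libraries ended both calls (edgeR adjusted p up to 0.098 and 0.125). Its log2 fold changes without PXGL replicate 1 were 0.14 in N2B27 and 0.13 with EPZ-6438 against PXGL. NSD2, NSD3 and ASH1L, which place dimethylation on H3K36, were not called with all 9 libraries. Without PXGL replicate 1 all 3 were called lower in N2B27 than in PXGL, ASH1L at a log2 fold change of -0.43 (edgeR adjusted p = 4.13e-08) beside -0.22 with that library, NSD2 at -0.21 (edgeR adjusted p = 0.0015) and NSD3 at -0.22 (edgeR adjusted p = 0.00155), and all 3 were lower with EPZ-6438 than in PXGL (-0.27, -0.26 and -0.17). ASH1L was also called higher with EPZ-6438 than in N2B27 without that library (0.16, edgeR adjusted p = 0.026) and with only these 2 groups (edgeR adjusted p = 0.0261).
The H3K36 demethylase KDM2B binds unmethylated CpG islands and brings a variant Polycomb complex to them. It gave 128, 120.1 and 119 CPM with EPZ-6438, 168, 158 and 161 CPM in N2B27 and 105, 110.3 and 112 CPM in PXGL. N2B27 libraries lay far above the rest, and the inhibitor libraries just above PXGL. KDM2B was 1.33-fold lower with EPZ-6438 than in N2B27 (log2 fold change -0.41, SE 0.06, edgeR adjusted p = 1.05e-04) and 1.49-fold higher in N2B27 than in PXGL (log2 fold change 0.58, SE 0.06, edgeR adjusted p = 6.12e-07). Its smaller rise with EPZ-6438 against PXGL (log2 fold change 0.17, SE 0.06, edgeR adjusted p = 0.0286) was lost in some alternatives (edgeR adjusted p up to 0.124). RNF34, which overlaps KDM2B on the opposite strand, averaged 52.2, 57.6 and 56.3 CPM in the 3 groups in that order and was not called between EPZ-6438 and N2B27 (edgeR adjusted p = 0.228). The paralogue KDM2A was not called with all 9 libraries, and was called lower in N2B27 (log2 fold change -0.19) and with EPZ-6438 (-0.26) than in PXGL without PXGL replicate 1.

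DOT1L, the H3K79 methyltransferase, gave 64.4, 58.8 and 65.6 CPM with EPZ-6438, 60.5, 53.1 and 58.9 CPM in N2B27 and 83.4, 101 and 98.8 CPM in PXGL. PXGL libraries lay above all others, and the 2 N2B27 groups overlapped. DOT1L was 1.64-fold lower in N2B27 (log2 fold change -0.71, SE 0.08, edgeR adjusted p = 2.22e-06) and 1.501-fold lower with EPZ-6438 (log2 fold change -0.59, SE 0.08, edgeR adjusted p = 1.81e-05) than in PXGL. With the offsets for length and GC content both calls held at smaller log2 fold changes of -0.38 in N2B27 and -0.27 with EPZ-6438. PLEKHJ1, which overlaps it on the opposite strand, also averaged lower in both N2B27 groups, at 53.0 CPM with EPZ-6438 and 58.1 CPM in N2B27 against 87.7 CPM in PXGL. As the strandedness of the libraries is unknown, reads of DOT1L and PLEKHJ1 cannot be told apart.
The last 5 members have a disputed or mainly different substrate. SMYD2, which methylates p53 and other proteins, gave 42.1, 37.9 and 44.5 CPM with EPZ-6438, 42.5, 43.4 and 44.7 CPM in N2B27 and 25.7, 24.2 and 21.1 CPM in PXGL. Both N2B27 groups lay far above PXGL and overlapped each other. SMYD2 was 1.84-fold higher in N2B27 (log2 fold change 0.88, SE 0.09, edgeR adjusted p = 6.66e-07) and 1.75-fold higher with EPZ-6438 (log2 fold change 0.81, SE 0.09, edgeR adjusted p = 1.68e-06) than in PXGL, the largest rise among the members in N2B27 against PXGL.
SMYD3, a lysine methyltransferase found largely in the cytoplasm, was called lower in N2B27 than in PXGL (log2 fold change -0.39, SE 0.14, edgeR adjusted p = 0.0217), with an edgeR adjusted p of up to 0.0759 in the alternatives. SETD3, an actin histidine methyltransferase, was called lower with EPZ-6438 than in PXGL (log2 fold change -0.21, SE 0.07, edgeR adjusted p = 0.0166), with an edgeR adjusted p of up to 0.0881. Between EPZ-6438 and N2B27 SETD3 was called lower with only these 2 groups (log2 fold change -0.15, edgeR adjusted p = 0.0176), without PXGL replicate 1 and with the offsets. KMT2E, whose SET domain is thought to be inactive, and KDM8, a Jumonji protein whose action on histones is disputed, were not called with all 9 libraries and no offsets. KMT2E was called lower in N2B27 (log2 fold change -0.24) and with EPZ-6438 (-0.20) than in PXGL without PXGL replicate 1, and KDM8 higher with EPZ-6438 than in PXGL with the offsets (0.70, edgeR adjusted p = 0.0436).

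Transcripts of the members were long more often than those of all genes. Their longest annotated transcripts had a median of 6295 bases, against 3284 bases over the tested genes with a length, and 31 of 40 (77.5%) exceeded 4 kb, beside 38.5% of those genes. All 13 members over 8 kb were below the mean of the other 2 PXGL libraries there, at 53.1% to 79.7% of it, and so were all 18 members of 4 to 8 kb, at 56.0% to 99.4%. The 9 members under 4 kb were at 95.4% to 125%, and 2 of them were below. KDM6B, at 56.0%, was the lowest of these 18, and KDM6A was at 90.3%. Fold changes between EPZ-6438 and N2B27 use no PXGL library, but the spread of PXGL replicate 1 enters their test. Across all 17 alternatives, the calls that held were SETD7, KDM4A, KDM4C, KDM2B and EHMT1 between EPZ-6438 and N2B27. Against PXGL, EHMT2, NSD1, SETD7, SMYD2 and SUV39H2 (higher) and DOT1L, KDM1A, KDM4A, KDM4B, KDM4C, KDM5B, KDM6B and SETDB2 (lower) held in both comparisons.

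**Figure D5:**
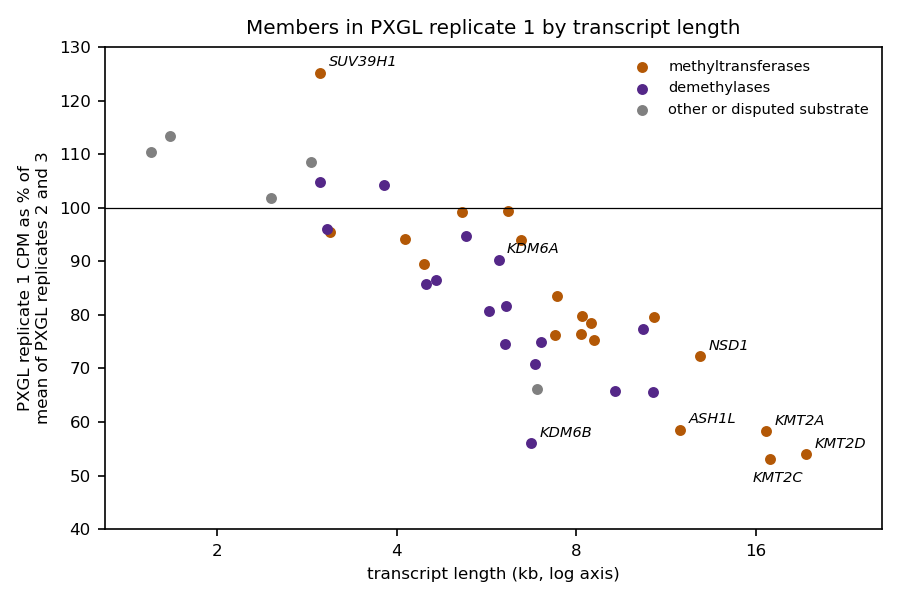
Level of each member in PXGL replicate 1 as a percent of the mean of PXGL replicates 2 and 3, against the length of its longest annotated transcript in kb on a log axis. All 31 members over 4 kb lie below 100%, and those over 8 kb lie between 53.1% and 79.7%.

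Other genes listed as histone lysine enzymes or as partners of the 40 were counted as lists, 69 of whose 72 genes were tested. With EPZ-6438 against N2B27, 10 rose (14.5%) and 15 fell (21.7%), beside 14.2% and 10.6% of all genes. In N2B27 against PXGL 24 rose (34.8%) and 14 fell (20.3%), beside 27.3% and 28.7%, and with EPZ-6438 against PXGL 19 rose (27.54%) and 16 fell (23.2%), beside 28.1% and 28%. The counts of the separate lists stand beside these same shares of all genes, and with 6 to 14 genes each they are descriptions only. Among 14 tested genes listed as other methyltransferases, 3 rose and 0 fell with the inhibitor: EZH2, PRDM2 and MECOM. PRDM2 is an H3K9 methyltransferase (log2 fold change 0.83, SE 0.11, edgeR adjusted p = 2.20e-05). MECOM averaged 1.25 ± 0.2603 CPM with EPZ-6438 and 0.302 ± 0.287 CPM in N2B27, and its N2B27 level lay close to the limit of 3 counts. Among the 8 genes listed as other demethylases, 1 rose (KDM4E) and 4 fell with the inhibitor, including JMJD1C, a relative of KDM3B (log2 fold change -0.61, SE 0.09, edgeR adjusted p = 1.45e-04). Whether each of the 8 demethylates histones was not tested. JMJD1C averaged 99.9 ± 9.83 CPM with EPZ-6438, 152 ± 9.81 CPM in N2B27 and 57.99 ± 7.901 CPM in PXGL.
Partners of KDM1A gave 2 higher and 3 lower of 10 with the inhibitor. The CoREST subunit RCOR2 averaged 12.6 ± 0.699 CPM with EPZ-6438, 24.99 ± 1.43 CPM in N2B27 and 11.1 ± 1.53 CPM in PXGL, and fell with the inhibitor (log2 fold change -0.98, SE 0.12, edgeR adjusted p = 1.21e-05). HDAC1, the deacetylase of the same complex, fell less (log2 fold change -0.27, SE 0.06, edgeR adjusted p = 0.00359). Partners of the H3K4 methyltransferases gave 2 higher and 3 lower of 14, among them PAGR1 of the KMT2C and KMT2D complexes, which fell (log2 fold change -0.37, SE 0.08, edgeR adjusted p = 0.00231). ASH2L, a core subunit of all these complexes, was lower in N2B27 than in PXGL (log2 fold change -0.50, SE 0.07, edgeR adjusted p = 6.43e-06), and HCFC1, a subunit of the SET1 and KMT2A complexes, was higher (log2 fold change 0.70, SE 0.06, edgeR adjusted p = 6.60e-08).
Readers and partners of H3K9 methylation gave 1 higher and 3 lower of 11 with the inhibitor, including the zinc finger partner of EHMT1 and EHMT2, ZNF644, which fell (log2 fold change -0.38, SE 0.08, edgeR adjusted p = 0.00302), and the heterochromatin protein CBX1, which fell too (log2 fold change -0.28, SE 0.06, edgeR adjusted p = 0.00235). The list made for DOT1L gave 1 higher, MLLT6 (log2 fold change 0.38, SE 0.09, edgeR adjusted p = 0.00475), and 1 lower, MLLT11, of 6 tested. Whether each gene of that list, MLLT11 included, is a partner of DOT1L was not tested. All 6 genes listed as readers of H3K36 methylation rose in N2B27 against PXGL. Their median log2 fold change was 0.47, against -0.03 over all genes tested. Whether each of the 6 binds the mark was not tested. With the inhibitor 1 of the 6 was called against N2B27, DNMT3B, the de novo DNA methyltransferase whose PWWP domain binds this mark, which averaged 333 ± 20.3 CPM with EPZ-6438, 910.2 ± 12.00 CPM in N2B27 and 324 ± 32.2 CPM in PXGL and fell 2.73-fold (log2 fold change -1.45, SE 0.07, edgeR adjusted p = 7.03e-10).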

How the data were processed

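Gene expression was measured by RNA-seq in 9 libraries of the H1 line, 3 per group, grouped by their titles. Per the labels' protocols, RNA was taken with Trizol and a kit that depletes ribosomal RNA was used, while the molecule label names polyA RNA; which of the 2 applies is unclear. The authors deposited expected counts, in which reads can be divided between genes, for 40332 gene symbols, and 7.13% to 8.09% of the values per library were fractional. Per the submitters' processing notes, the tools were DESeq2, STAR 2.7.6a and Trim Galore and the build was hg38. The role of each tool, the counting program, the annotation and strandedness were not given in the sources used here. Of the 40 members, 19 overlap an exon of a gene on the opposite strand in GENCODE 29. For genes with close copies the division of reads is uncertain.

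Values were rounded to whole numbers, filtered by filterByExpr (15179 of 22640 genes with any count) and fitted over all 9 libraries with edgeR 4.0.16 (R 4.3.3; TMM, robust quasi-likelihood test, adjusted p under 0.05 by Benjamini-Hochberg, no fold threshold). SE is the absolute log2 fold change over the root of F, and 95% intervals use the t quantile at each gene's degrees of freedom. CPM per kb divides by the longest GENCODE 29 basic transcript. Replicates differed by more than counting noise (lowest chi-square 2.57 per degree of freedom). Whether replicates came from separate cultures is unknown, so that a p-value reflects variation among these 9 libraries that may be technical only. Floors of 3 counts cover counting error only. The series text speaks of triplicate samples and duplicate RNA-seq, and the labels give 3 libraries per group.

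The members, lists and tests were chosen with earlier results of these data known. All 40 members are accounted for by class. Every library is given for KDM6A and KDM6B and, per comparison, for the 8 called members with the largest change, ranges that do not overlap and at least 1 CPM in the higher group. From each list of other genes, EZH1, EZH2 and up to 3 called genes were eligible. KMT2C was added after its values were seen. Alternatives were DESeq2 1.42.0 (its size factors, and its test), no filter or a stricter filter of at least 1 CPM in all 3 libraries of a group, only the 2 groups compared, each library left out, a replicate block, loess offsets for transcript length and GC content (span 0.5; values for 99.8% of tested genes), and the last 2 together. Same-numbered libraries did not deviate together (correlations of -0.026 to 0.037). Such correlations cannot show how the cultures were set up, so whether the numbers pair samples is unknown. Only the edgeR fit over all 9 libraries and the fit with the offsets were tried on simulated counts. Those counts did not include the length trend of PXGL replicate 1.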

Additional observations from a re-analysis of the deposited data

How the results depend on the processing

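With the alternatives changed 1 at a time, KDM6A and KDM6B kept their direction in each comparison. For KDM6B between EPZ-6438 and N2B27 the log2 fold change was 0.28 with only the 2 groups, now called, and 0.18 to 0.38 as single libraries were left out, being called without PXGL replicate 1 (0.28). The members called higher between EPZ-6438 and N2B27, 2 in all, were 1 with DESeq2's size factors, 5 with only the 2 groups and 1 to 5 as single libraries were left out. Those called lower, 5 in all, were 10 with only the 2 groups, 10 with offsets for length and GC content, 10 with the replicate block and these offsets, and 4 to 11 as single libraries were left out. In N2B27 against PXGL the higher count of 8 was 14 with the offsets, with or without the block, and 7 to 9 as libraries were left out, and the lower count of 13 was 9 to 22. With EPZ-6438 against PXGL the lower count of 12 was 11 to 23. Lower counts were largest without PXGL replicate 1 in all 3 comparisons, and the higher counts against PXGL with the offsets (14 and 12). Without PXGL replicate 1 the called genes over the whole table also numbered 5770, 9506 and 9452, against 3752, 8505 and 8515 with it. Of the members not called, 9 of 33 between EPZ-6438 and N2B27, 15 of 19 in N2B27 against PXGL and 16 of 20 with EPZ-6438 against PXGL were called in at least 1 alternative. The sign of the log2 fold change differed in at least 1 alternative for 11, 11 and 12 members, of which 0, 2 and 1 were called. Reversals with a call on either side were these. In N2B27 against PXGL, KMT2A was -0.17 to 0.19 as single libraries were left out (-0.17 without PXGL replicate 1), and with the offsets KMT2B was 0.049, SETD1A 0.18 and SETD1B 0.075 (0.047, 0.18 and 0.072 with the block as well). With EPZ-6438 against PXGL and the offsets, KMT2B was 0.0061 and SETD1A 0.20 (0.0058 and 0.21 with the block as well). The cause was not tested. The replicate block alone changed no call between EPZ-6438 and N2B27 (2 higher, 5 lower) or with EPZ-6438 against PXGL. It added SUV39H1 (9 higher, 13 lower) in N2B27 against PXGL. Whether the numbers pair the samples is unknown. Depth limits KDM4D and KDM8, whose lowest libraries were at 0.746 and 1.73 CPM.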
